A study of Mus musculus with 460 samples.

Results

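The semaphorins with their plexin and neuropilin receptors, the ephrins with the Eph receptors, the Slits with the Robo receptors, and the netrins with the Unc5 receptors are families of guidance cues, named for their part in steering growing axons. Their genes were taken by symbol from the counted genes, and 66 of 48440 matched: 33 encode ligands and 33 receptors. One netrin symbol of the rule, Ntn3, was not analysed here. The levels are described over 460 single cells of 1 group, labelled CAFs (cancer-associated fibroblasts, the fibroblast-like cells of a tumour's stroma), from mice of 1 strain with lung adenocarcinoma. All cells share this strain and disease, and the labels give no age, treatment, animal or culture, so the group counts as 1 sample and no test between cells was made. Within it, the cells whose Rgs5 count was above their Pdgfra count, 44.1% of the 460, were set beside the other 55.9%. Rgs5 is a regulator of G protein signalling that marks pericytes, and Pdgfra is a receptor that marks fibroblasts.

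Semaphorins signal through plexins, and the secreted class 3 members mostly bind a neuropilin that is joined to a plexin. Ephrins are held at the cell surface and bind Eph receptor tyrosine kinases on a neighbouring cell, with signals passing in both directions. Slits are large secreted proteins that repel cells through Robo receptors, and netrins bind Unc5 receptors, Dcc or neogenin. In lung and vessel, the same families are known for roles in branching, endothelial growth and the contact of mural cells with endothelium.

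The cells held a median of 88701 counts, from 25029 to 240496, with a median of 76944 in the cells with Rgs5 above Pdgfra and 96654 in the others. Values are a gene's share of a cell's total count, scaled to 1000000 (CPM), or pooled CPM, which divides the summed counts of a set by its summed totals. Each interval is at 95% and covers counting error only. The summed level of 10 fibroblast markers was 6077 CPM in the cells with Rgs5 above Pdgfra and 12507 CPM in the others. That of 10 markers of pericytes or vascular smooth muscle, called pericyte markers here, was 13891 and 4007 CPM. These lists hold Pdgfra and Rgs5, the genes of the split. Without them, the 9 other fibroblast markers summed to 5668 and 10780 CPM and the 9 other pericyte markers to 9271 and 3639 CPM. With Pdgfra, 4 of the 10 fibroblast markers were at least 2-fold lower in the cells with Rgs5 above Pdgfra. Thy1, at 393.5 against 341.97 CPM, Fbln1, at 211.2 against 181.8, and Pdpn, at 18.5 against 10.7, were higher there within 2-fold. With Rgs5, 7 of the 10 pericyte markers were at least 2-fold higher. Transcripts of other cell types were widespread: Sftpc, a surfactant gene of alveolar epithelium, was counted in 80.9% of cells, and Lyz2, a myeloid gene, in 84.8%. A share of cells with a count is therefore not in itself a share of cells that express a gene. In 2 runs of neighbouring columns, 27.6% of the cells, Sftpc was low, and these made up 31.5% of the cells with Rgs5 above Pdgfra and 24.5% of the others. No label explains these runs, so they are called the low-Sftpc columns. Counts of Rgs5 and Pdgfra were never equal, and in 70 cells they lay within 2 times of each other.

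Promoter windows of 5 genes are shown as examples of ligands and receptors past 2-fold between the sets: 2 receptors and 2 ligands that were lower in the cells with Rgs5 above Pdgfra, and 1 receptor that was higher. Each is 300 bases of RefSeq sequence on GRCm38.p6, from 250 bases before the transcript start to 50 after, written 5′ to 3′ along the gene's strand. They lie at chr16:74411776-74412075 on the minus strand (Robo2), chr5:47982905-47983204 on the plus strand (Slit2), chr5:17574566-17574865 on the plus strand (Sema3c), chr1:194619579-194619878 on the plus strand (Plxna2) and chr9:109095186-109095485 on the plus strand (Plxnb1). Capitals mark matches on either strand to the GC box GGGCGG, the core of Sp1 sites, or to TGGGAA, the core of Notch-responsive RBPJ sites.
Robo2: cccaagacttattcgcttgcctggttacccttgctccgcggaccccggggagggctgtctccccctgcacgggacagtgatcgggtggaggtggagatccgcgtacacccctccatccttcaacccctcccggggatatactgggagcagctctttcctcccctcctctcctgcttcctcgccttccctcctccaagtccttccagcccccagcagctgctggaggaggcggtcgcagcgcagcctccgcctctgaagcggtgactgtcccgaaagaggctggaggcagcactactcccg
Slit2: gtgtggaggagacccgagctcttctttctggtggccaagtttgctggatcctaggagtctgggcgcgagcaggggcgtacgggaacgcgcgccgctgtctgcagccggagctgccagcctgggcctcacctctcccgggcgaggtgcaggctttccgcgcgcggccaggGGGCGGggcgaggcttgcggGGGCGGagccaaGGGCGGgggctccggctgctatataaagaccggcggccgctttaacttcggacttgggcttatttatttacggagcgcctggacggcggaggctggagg
Sema3c: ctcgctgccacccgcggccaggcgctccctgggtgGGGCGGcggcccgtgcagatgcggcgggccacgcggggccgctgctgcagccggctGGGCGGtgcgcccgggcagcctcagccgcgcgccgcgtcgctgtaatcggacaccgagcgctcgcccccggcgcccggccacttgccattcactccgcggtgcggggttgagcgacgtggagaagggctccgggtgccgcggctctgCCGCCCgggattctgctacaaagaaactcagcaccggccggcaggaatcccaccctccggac
Plxna2: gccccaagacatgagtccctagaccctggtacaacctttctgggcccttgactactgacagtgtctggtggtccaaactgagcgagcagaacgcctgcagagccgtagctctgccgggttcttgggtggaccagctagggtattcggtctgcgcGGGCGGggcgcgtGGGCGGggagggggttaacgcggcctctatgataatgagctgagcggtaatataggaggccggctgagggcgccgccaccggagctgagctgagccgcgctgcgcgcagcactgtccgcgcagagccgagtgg
Plxnb1: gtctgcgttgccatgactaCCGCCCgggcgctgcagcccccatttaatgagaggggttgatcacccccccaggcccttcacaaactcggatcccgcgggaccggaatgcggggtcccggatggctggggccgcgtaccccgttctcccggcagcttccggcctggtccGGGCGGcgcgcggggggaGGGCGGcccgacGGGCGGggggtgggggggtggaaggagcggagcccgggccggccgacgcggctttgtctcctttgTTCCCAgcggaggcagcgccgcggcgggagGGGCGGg
The Plxnb1 window held 5 GC boxes and 1 TGGGAA, the Slit2 and Sema3c windows 3 GC boxes each and the Plxna2 window 2, with no overlap between marked matches. The Robo2 window, the one of 3 listed starts that contains the GENCODE start of the gene, held neither motif. The Slit2 and Plxnb1 windows also contain the GENCODE start, while the Sema3c window lies under 300 bases and the Plxna2 window 1361 bases from it.

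The table of promoters had 73 windows for 57 of the 66 genes. The GC box was in 71.2% of these windows, against 35.7% of all 32851 windows of the same length. A TATA box, searched as TATAAA, was in 2.74% against 13.6%, TGGGAA in 21.9% against 25.6%, and the E-box CANNTG, the site of basic helix-loop-helix factors, in 50.7% against 72.3%. The median number of CG pairs per window was 20 for the guidance genes and 7 for all windows. Among the 12 genes lower in the cells with Rgs5 above Pdgfra, 56.2% of 16 windows held a GC box, and among the 6 higher genes 50% of 8 windows did. A match describes the letters of a window and says nothing of binding.

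Several guidance genes were counted in nearly all of these cells, and others in few. At a depth thinned to 56586 counts per cell, which all but 46 cells reached, a cell held a count of a median of 26 of the 66 genes, from 16 to 38. The median was 24 in the cells with Rgs5 above Pdgfra and 27 in the others. Over all cells at full depth, 16 of the 66 genes reached 100 CPM, 10 were counted in at least 90% of cells, and 12 in under 5%. Among all 48440 genes, these counts were 2283, 2364 and 31916. By CPM, Robo2 led with 924 CPM, then the co-receptor Nrp1 with 718 and the netrin receptor Unc5b with 617. How barcodes became counts is not known, and if each count is 1 molecule no division by length is needed. Per kilobase of exon, which corrects for length where longer transcripts give more counts, Unc5b led with 98.6 CPM per kb, then Nrp1 with 73.4, Robo2 with 54.4, the ephrin Efnb1 with 50.7 and the plexin Plxnb2 with 48.4. The highest semaphorin on this scale was Sema6d, with 27.5 CPM per kb, and the highest Slit was Slit3, with 25.7, although Slit2 was above it by CPM. Intervals of these levels cover counting error in 1 sample, so the order holds for these cells only.

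Between both sets of cells, 53 of the 66 genes reached 5 pooled CPM in the higher set. Of these, 6 were at least 2-fold higher in the cells with Rgs5 above Pdgfra, 12 were at least 2-fold lower and 35 lay within 2-fold. Among all 12598 genes at that level, 5.98% were higher and 5.94% lower by the same measure, against 11.3% and 22.6% of the guidance genes. The median log2 ratio was -0.26 for the guidance genes and 0.03 for all genes. Of 18 semaphorins at that level, 4 were higher and 4 lower, and of 24 receptors, 2 were higher and 6 lower. Beside this, the summed level of 10 epithelial markers was 1484 against 894 CPM, that of immune markers 490.7 against 168.5 CPM and that of 10 endothelial markers 103.1 against 93.2 CPM. Lymphatic markers summed to 57.5 against 27.4 CPM, mesothelial markers to 101.7 against 42.8, neuron markers to 6.66 against 7.09 and Schwann cell markers to 9.61 against 49.4, of which S100b alone reached 5 CPM. Lymphatic and mesothelial sums had medians of 0 CPM in both sets. Single cells with Rgs5 above Pdgfra reached 15902 CPM of lymphatic and 8320 CPM of mesothelial markers. Of 5 mesothelial markers, 3 were at least 2-fold higher in that set. Upk1b, at 20.3 against 29.1 CPM, and Wt1, at 7.02 against 10.3 CPM, were lower. The part of these cell types in the ratios was not tested.

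**Figure D1:**
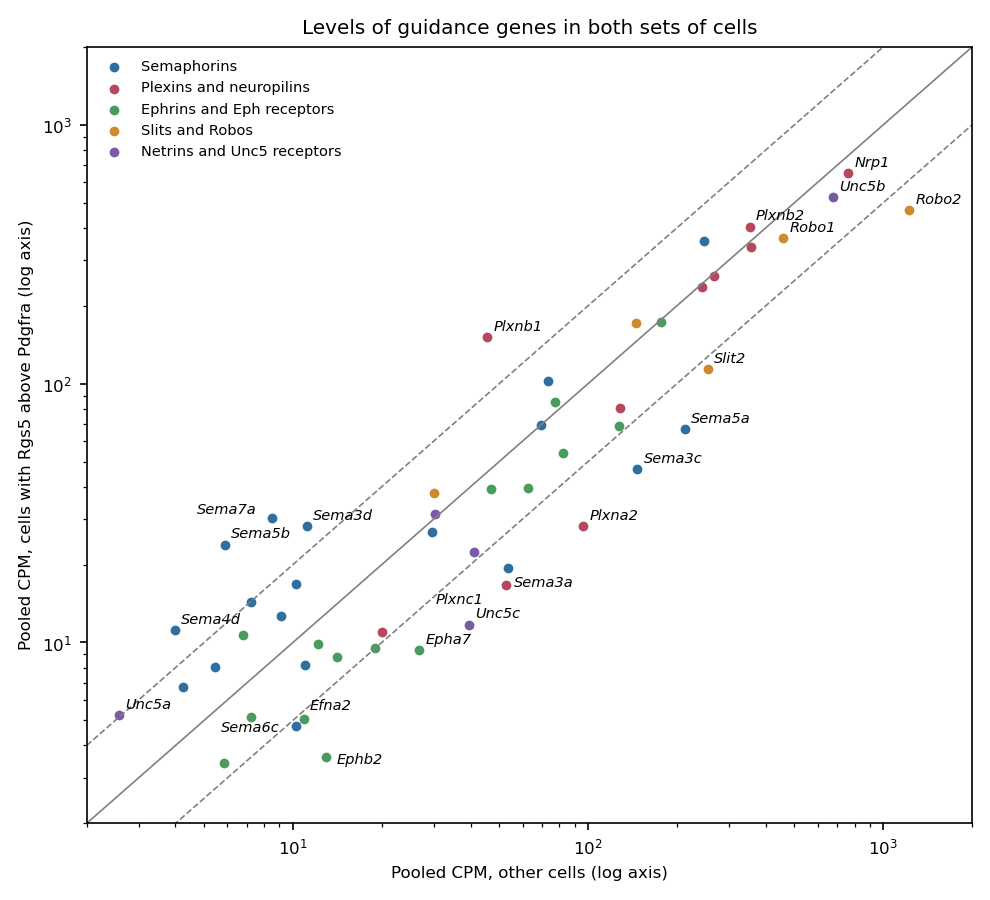
Pooled CPM of the 53 guidance genes with at least 5 CPM, in the other cells (horizontal, log axis) and in the cells with Rgs5 above Pdgfra (vertical, log axis), coloured by family. The solid line marks equal levels and the dashed lines a 2-fold difference. The 6 genes on or above the upper dashed line and the 12 on or below the lower one are named, with the 5 genes of highest level, of which Robo2 is also among the 12.

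Among secreted ligands, Slit2 and Sema3c were lower in the cells with Rgs5 above Pdgfra. Slit2 ranged from 0 to 1947 CPM per cell in those cells, with a median of 57.2, and from 0 to 1303 CPM in the others, with a median of 175.9. The ranges overlapped almost fully, and the medians lay apart. Pooled, Slit2 was at 114.1 against 254.6 CPM, 2.23-fold lower (2.12 to 2.35). With size factors in place of totals the ratio was 1.96-fold. Slit3, the other abundant Slit, was at 171.3 against 145.6 CPM pooled, with medians of 16.04 and 16.6 CPM. Slit3 was the more unevenly spread: the 46 cells with the highest levels held 62.3% of its counts, against 40.5% for Slit2. Slit1 was at 0.305 CPM over all cells.

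Sema3c, a class 3 semaphorin known from outflow tract development, ranged from 0 to 940.5 CPM with a median of 11.03 in the cells with Rgs5 above Pdgfra, and from 0 to 1400 CPM with a median of 74.7 in the others. Its pooled level was 46.8 against 146.99 CPM, 3.14-fold lower (2.91 to 3.40). It was 2.43-fold lower without the low-Sftpc columns and 8.69-fold lower within them. Sema3a, a repellent ligand of Nrp1 and plexins A, had a median of 0 CPM in both sets, with maxima of 1598 and 1229 CPM. Its pooled levels were 19.3 and 53.4 CPM, 2.76-fold lower, and 1.95-fold lower with size factors or 4.34-fold lower at the thinned depth. Both genes lie on chromosome 5, as do Sema3d, Sema3e and Slit2.

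Sema3d went the other way in pooled CPM, at 28.1 against 11.2, 2.52-fold higher, but few cells held it. It was counted in 15.2% of cells, and the 46 highest cells held 96.8% of its counts. The cell with the highest level, 1199 CPM, also held the highest Sema3a and Sema3f levels of all cells. This cell had the fewest counts, 25029, with 15902 CPM of lymphatic endothelial markers and 4355 CPM of endothelial markers. It held 3.93% of the Sema3d counts, while another cell held 25.8%. Without the cell of highest CPM in each set, Sema3d was 2.75-fold higher. At the thinned depth Sema3d was counted in 9.94% of the cells with Rgs5 above Pdgfra and 11.9% of the others. The pooled ratio was 1.72-fold at that depth, 1.34-fold without the 5% of cells with the most counts, and turned to -0.89 on the log2 scale when only cells with more than 2 times as much of one of the splitting genes were used.

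Sema3e, the ligand of Plxnd1, was at 16.8 against 10.2 CPM, within 2-fold. The 46 highest cells held 96.9% of its counts.

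Among the membrane semaphorins, Sema5a, which carries thrombospondin repeats, ranged from 0 to 1744 CPM with a median of 11.2 in the cells with Rgs5 above Pdgfra. In the others it ranged from 0 to 4737 CPM with a median of 107.1, and the upper quartile of the first set, 33.8 CPM, lay above the lower quartile of the second, 26.4 CPM. Pooled, it was at 66.9 against 212.5 CPM, 3.18-fold lower (2.98 to 3.39). One cell held 8.28% of its counts, and without the highest cell of each set it was 3.70-fold lower. Sema6d, a ligand of Plxna1, was the most abundant semaphorin and lay within 2-fold, at 356.1 against 246.5 CPM, with medians of 322.2 and 182.4 CPM. Sema4b, at 69.5 and 69.2 CPM, and Sema4c, at 102.02 and 73.05 CPM, both of the class that binds plexins B, also lay within 2-fold.

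Sema5b, a relative of Sema5a, was higher in the cells with Rgs5 above Pdgfra, at 23.9 against 5.89 CPM, 4.06-fold (3.36 to 4.93). Its median was 0 CPM in both sets, with maxima of 383.4 and 177.1 CPM, and it was counted in 21.1% and 9.88% of cells at the thinned depth. It was 10.1-fold higher in the low-Sftpc columns alone. Sema4d, a ligand of Plxnb1 known from immune cells, was at 11.2 against 3.98 CPM, 2.80-fold higher. The 8 immune markers at the 5 CPM level were all at least 2-fold higher in the same cells, and the cell with the highest Sema4d, 316.02 CPM, held 2080 CPM of immune markers. Without the cells that held a count of at least 2 endothelial markers, Sema4d was 1.32-fold higher.

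Sema7a, which is anchored by a lipid and binds integrins and Plxnc1, was at 30.2 against 8.50 CPM, 3.55-fold higher. A single cell with 2158 CPM held 44.2% of all its counts, and without the highest cell of each set it was 2.81-fold higher. That cell had Rgs5 above Pdgfra, with 13753 CPM of fibroblast markers and 1316.5 CPM of pericyte markers. The same cell had the highest Unc5a level and held 18.7% of the Unc5a counts. At the thinned depth Sema7a was counted in 10.5% of the cells with Rgs5 above Pdgfra and 11.5% of the others. The difference therefore lay in few high cells and not in how many held it. Sema6c, a class 6 member, was at 4.78 against 10.2 CPM, 2.14-fold lower, and 1.44-fold lower in the low-Sftpc columns alone. Summed, secreted semaphorins were at 132.3 against 236.6 CPM and transmembrane semaphorins at 691 against 674 CPM.

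Sema3d, Sema3e and Sema7a were scarce in the low-Sftpc columns. Sema7a was at 0.881 CPM in the low-Sftpc columns and 22.3 CPM in the others, Sema3d at 2.94 against 22.6 CPM and Sema3e at 2.15 against 16.2 CPM. Epha7, at 5.48 against 24.3 CPM, and Sema3a, at 17.9 against 46.8 CPM, went the same way. The cell that held 44.2% of the Sema7a counts lay outside these columns. The 12 cells with at least 100 CPM of Hand2 and Hoxa10, described below, held 50.4% of Epha7 and 21.7% of Sema3a counts. Of these 12 cells, 1 lay in the low-Sftpc columns. Outside those columns, a single cell reached 8320 CPM of mesothelial markers. In the low-Sftpc columns these markers were at 12.3 against 83.3 CPM, endothelial markers at 33.3 against 117.3 CPM and epithelial markers at 114.4 against 1449 CPM. Immune markers, at 441.4 against 251.02 CPM, and pericyte markers, at 9384 against 7485 CPM, were higher there, as were the guidance genes Epha3, at 122.1 against 97.99 CPM, and Efnb1, at 200.8 against 167.05 CPM. The part of these cell types in the levels was not tested.

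**Figure D2:**
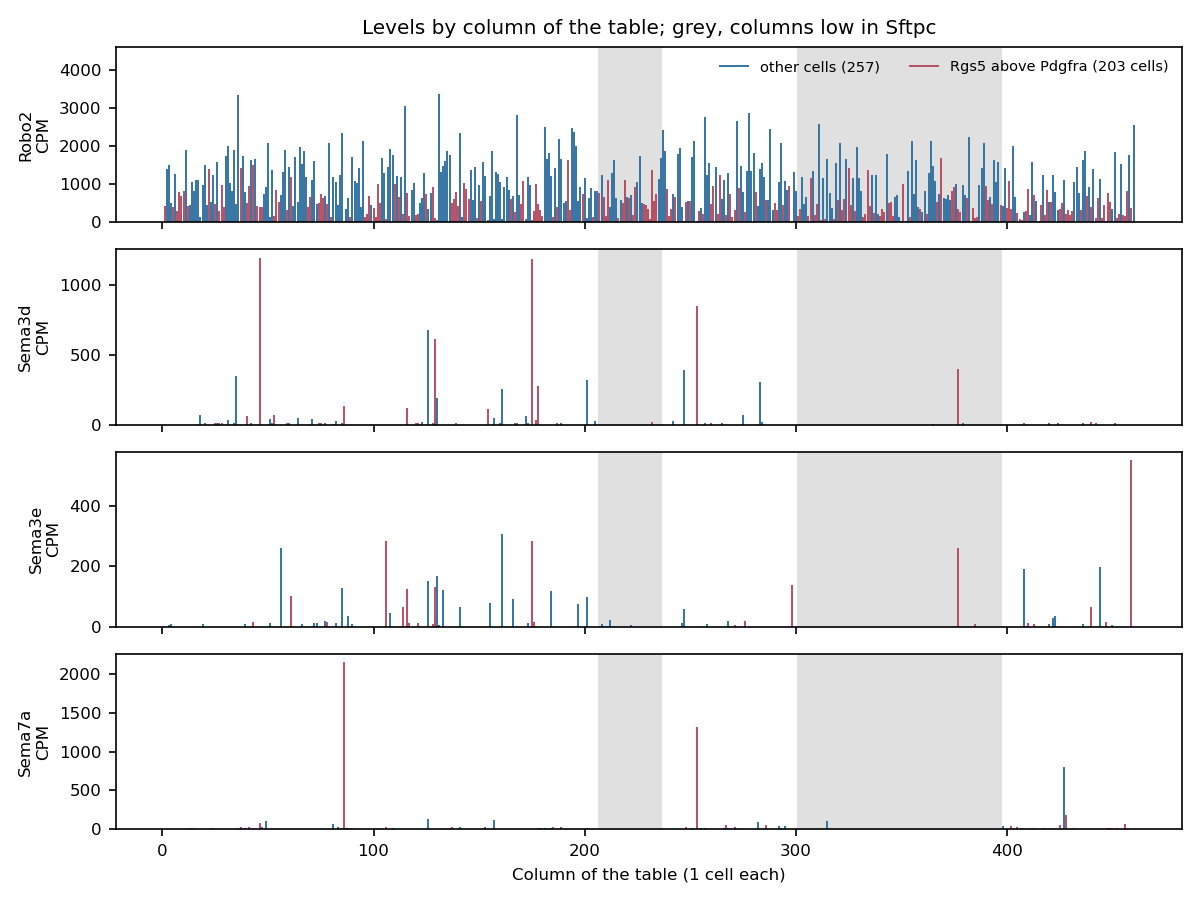
CPM of Robo2, Sema3d, Sema3e and Sema7a (vertical, linear axes) in each of the 460 columns of the table, in the order of the table (horizontal), coloured by set. Robo2 is present in every column, while each of the other genes rests on a few high columns, most of them outside the grey runs that are low in Sftpc.

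Among receptors, Robo2 differed most in amount. It was counted in every cell, from 14.1 to 1682 CPM with a median of 422.6 in the cells with Rgs5 above Pdgfra and from 29.9 to 3362 CPM with a median of 1184 in the others. The ranges overlapped, but the lower quartile of the others, 698 CPM, lay above the upper quartile of the first set, 686 CPM. Pooled, Robo2 was at 469 against 1226 CPM, 2.61-fold lower (2.55 to 2.68), and 2.33-fold to 2.90-fold lower under the 10 other ways of choosing cells or scaling. Robo1, its neighbour on chromosome 16, was at 365.8 against 458.9 CPM, within 2-fold, with medians of 350.6 and 418.7 CPM. Robo4, a Robo of endothelial cells, was at 37.9 against 30.1 CPM, and Robo3 at 0.376 CPM over all cells. Robo genes summed to 873 against 1715 CPM.

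**Figure D3:**
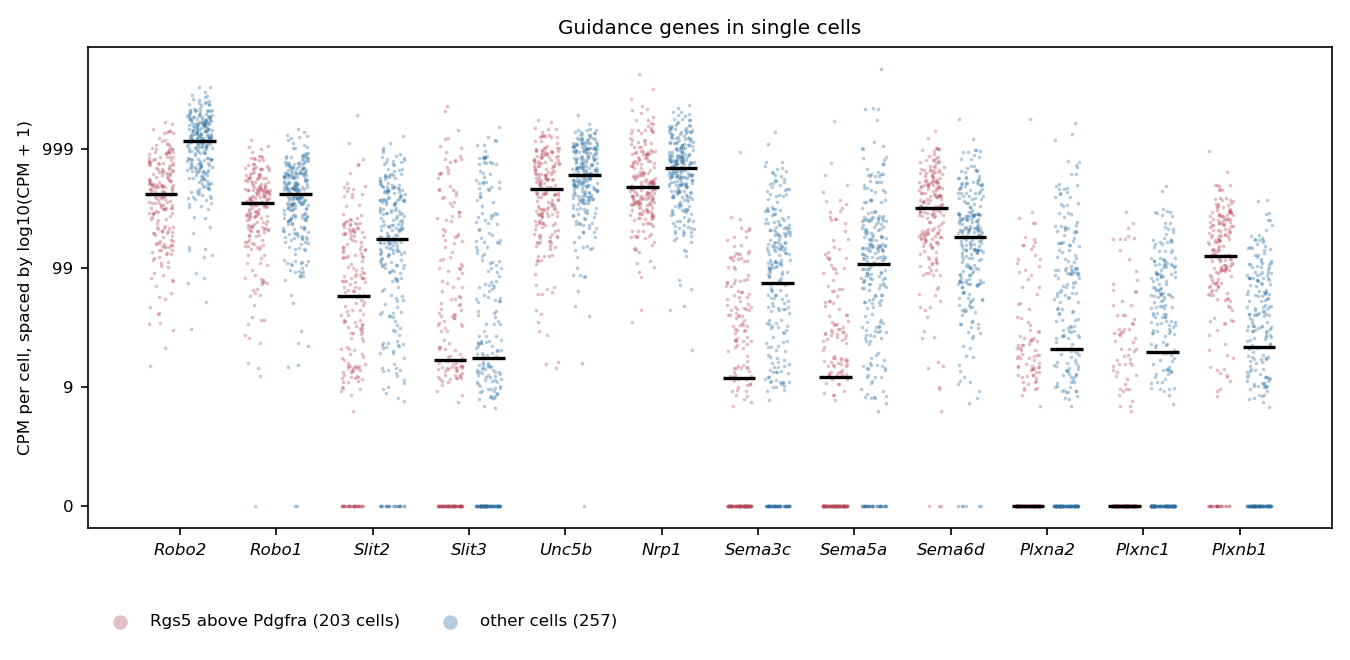
CPM per cell of 12 guidance genes, spaced by log10(CPM + 1), in the cells with Rgs5 above Pdgfra and the other cells, each point 1 cell and each bar the median. Robo2, Slit2, Sema3c, Sema5a, Plxna2 and Plxnc1 sit lower and Plxnb1 higher in the first set, and the ranges of every gene overlap.

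Plexins differed by member, while their summed level was 1292 against 1318 CPM. Plxnb1, a receptor of Sema4d, ranged from 0 to 959 CPM with a median of 126.9 in the cells with Rgs5 above Pdgfra and from 0 to 374.8 CPM with a median of 20.9 in the others. The sets overlapped, with many cells at 0 among the others. Pooled, Plxnb1 was at 151.5 against 45.5 CPM, 3.33-fold higher (3.11 to 3.57), and at least 2.91-fold higher under each of the 10 other ways of choosing cells or scaling. Its exons overlap those of Gm7628 on the opposite strand, and whether the counting used strand is not given in the sources used here. Plxnb2, at 404.4 against 353.04 CPM, and Plxnb3, at 0.516 CPM over all cells, did not share the difference by 2-fold.

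Plxna2, a receptor of class 6 semaphorins and a partner of neuropilins, had a median of 0 CPM and a maximum of 1798 CPM in the cells with Rgs5 above Pdgfra, and a median of 20.02 CPM and a maximum of 1656 CPM in the others. Its pooled level was 28.1 against 96.2 CPM, 3.42-fold lower (3.10 to 3.78), and 5.21-fold lower in the low-Sftpc columns alone. Plxnc1, the receptor of Sema7a, had medians of 0 and 18.8 CPM and maxima of 297.8 and 494 CPM. Pooled, it was at 16.7 against 52.8 CPM, 3.17-fold lower, and 1.84-fold lower in the low-Sftpc columns alone. Plxna1 at 338.7 against 355.2 CPM, Plxnd1 at 260.3 against 266.3 CPM and Plxna4 at 80.3 against 128.05 CPM lay within 2-fold. Plxna4 was past it in some alternatives, 2.01-fold lower at the thinned depth and 2.26-fold lower without the 5% of cells with the most counts. With only cells holding more than 2 times as much of one of the splitting genes, it was 2.01-fold lower. The neuropilins also lay within 2-fold: Nrp1, which also binds VEGF, was at 651 against 762 CPM, and Nrp2 at 235.7 against 244.1 CPM.

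The Unc5 receptors went 3 ways. Unc5b, the most abundant and known from vessels, was at 527 against 676 CPM, with medians of 461 and 610.5 CPM, within 2-fold. Unc5c was at 11.7 against 39.5 CPM, 3.36-fold lower (2.89 to 3.94), with a median of 0 CPM in both sets and 90.4% of its counts in the 46 highest cells. It was 6.39-fold lower when only cells with more than 2 times as much of one of the splitting genes were used. Unc5a was at 5.25 against 2.57 CPM, 2.04-fold higher, with 1.25-fold to 1.55-fold without endothelial-marker cells or without the low-Sftpc columns and 4.93-fold within them. Both Unc5c and Unc5a overlap a gene on the opposite strand. Netrins were low: Ntn1 was at 22.4 against 40.97 CPM, and Ntn4, found in basement membranes, at 31.3 against 30.4 CPM.

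Ephrins and Eph receptors mostly lay within 2-fold. Efnb1 was the most abundant ephrin, at 173.3 against 176.4 CPM, and Efnb2, the arterial ligand of Ephb4, was at 39.6 against 62.5 CPM. Epha3 led the Eph receptors by CPM and Epha2 per kilobase of exon, at 17.2 against 11.9 CPM per kb. Epha3 had medians of 17.9 and 55.5 CPM and pooled levels of 68.7 and 126.96 CPM, 1.85-fold lower. It was 2.23-fold lower when only cells with more than 2 times as much of one of the splitting genes were used. Without the cells with at least 100 CPM of Hand2 and Hoxa10, described below, it was 2.03-fold lower. Epha2, at 84.7 against 77.5 CPM, Ephb3, at 53.8 against 82.2 CPM, and Ephb4, at 39.04 against 46.9 CPM, followed.

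Of the receptors, Epha7 was 2.87-fold lower, at 9.32 against 26.7 CPM, and Ephb2 3.60-fold lower, at 3.60 against 12.9 CPM. Both had a median of 0 CPM in each set. At the thinned depth Epha7 was 4.54-fold lower, and without the low-Sftpc columns Ephb2 was 12.1-fold lower. Of the ligands, Efna2 was 2.14-fold lower (1.68 to 2.76), at 5.07 against 10.9 CPM, and 1.41-fold lower in the low-Sftpc columns alone. Epha4, which binds ephrins of both classes, was at 9.49 against 18.98 CPM, a ratio of 1.999 that fell just short of the 2-fold limit, and Sema4a, at 14.3 against 7.21 CPM, a ratio of 1.987, lay just inside it too. Epha8 had no count in any cell, which allows up to 0.0704 CPM over all cells by 3 counts.

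Epha4, Epha7, Ephb2 and Unc5c were all higher in a small set of cells. There were 12 cells with at least 100 CPM of Hand2 and Hoxa10 together, genes of developmental transcription factors, and no guidance gene was used to choose them. Of these, 10 were among the others and 2 among the cells with Rgs5 above Pdgfra. They were set beside all remaining cells after earlier results of these data were known. In the 12 cells, 15 of 53 guidance genes at the 5 CPM level were at least 2-fold higher and 13 at least 2-fold lower, where 18.2% and 15.3% of all 13338 genes were. Fibroblast markers summed to 9043 CPM in the 12 cells against 9975, epithelial markers to 3564 against 1057, mesothelial markers to 286.9 against 59.8 and neuron markers to 18.9 against 6.57. Pericyte markers were lower, at 2574 against 8098 CPM, as were immune markers, at 162.8 against 300.6, and endothelial markers, at 55.9 against 98.3. Lymphatic markers, at 4.93 against 40.4 CPM, and Schwann cell markers, at 12.3 against 34.2, were lower too.

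Epha4 was counted in 12 of the 12 cells, from 15.99 to 1261 CPM with a median of 121.1, while the remaining cells had a median of 0 and a maximum of 306.8 CPM. These 12 cells held 57.7% of its counts, and its pooled level was 307.4 against 6.62 CPM, 46.5-fold higher (39.6 to 54.5). Each of the 12 lay above the 90th percentile of the remaining cells, 14.03 CPM. Ephb2, a receptor of ephrins B, was counted in 11 of the 12, with a median of 142.5 CPM and a maximum of 583, and was at 170.99 against 4.47 CPM pooled. Epha7 was counted in all 12, from 20.5 to 913 CPM with a median of 368.1, and was at 349.4 against 10.1 CPM. Unc5c was counted in 10 of the 12, with a median of 349.99 CPM, and was at 337.04 against 19.4 CPM. The 12 cells held 52.9% of the Ephb2 counts, 50.4% of the Epha7 counts and 33.8% of the Unc5c counts. The cell with the highest Unc5c level, 1314 CPM, lay outside them. Epha6 was counted in 3 of the 12 cells, which held 93.5% of its few counts.

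The same cells were high in several ligands and in 1 plexin, and low in others. Sema5a had a median of 1075 CPM in the 12 cells and 33.4 CPM in the remaining cells, and Sema3a 218.9 against 0 CPM. Plxna4, a receptor of class 3 semaphorins, was counted in all 12 cells, from 112.5 to 1049 CPM, and was at 555 against 95.9 CPM pooled, 5.78-fold higher. Slit2 was at 10.7 against 204.2 CPM, 19.1-fold lower, with a maximum of 78.02 CPM in the 12 cells. Sema6d was at 20.55 against 298.01 CPM, 14.5-fold lower, with a maximum of 75.5 CPM. Robo2, at 899 against 925 CPM, and Robo1, at 354.3 against 423.8 CPM, lay within 2-fold. Both sets of cells overlapped for each of these genes.

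**Figure D4:**
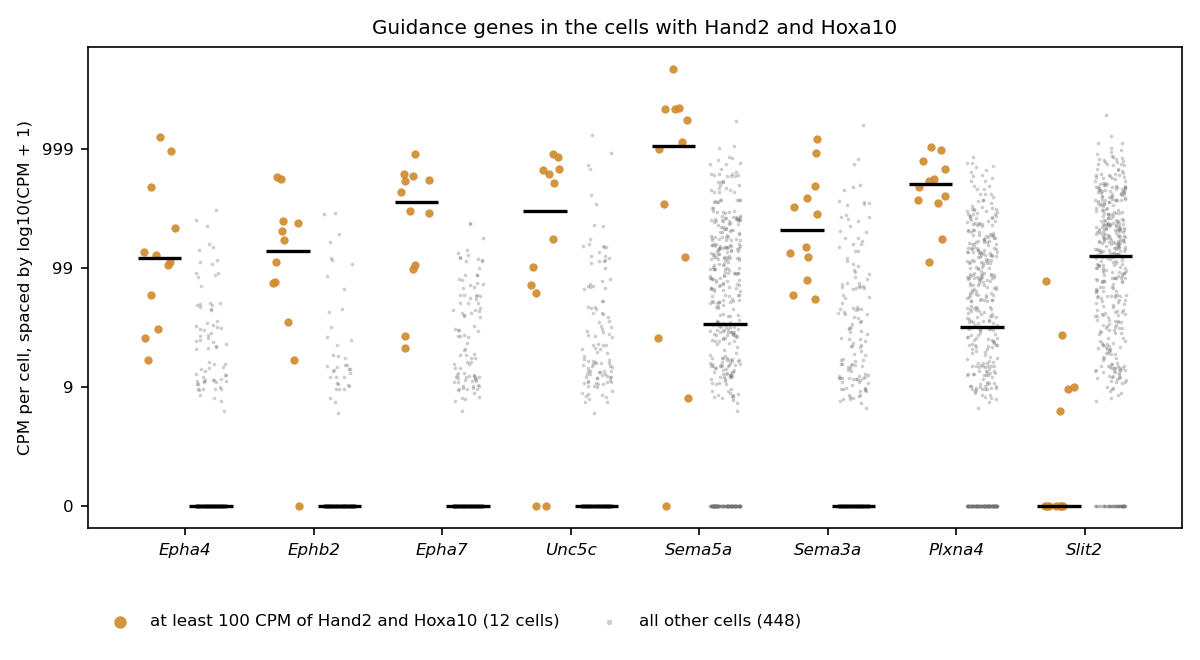
CPM per cell of 8 guidance genes, spaced by log10(CPM + 1), in the 12 cells with at least 100 CPM of Hand2 and Hoxa10 together and in all other cells, each point 1 cell and each bar the median. The medians of Epha4, Ephb2, Epha7, Unc5c and Sema3a are 0 in the other cells and between 121.1 and 368.1 CPM in the 12, while Slit2 has a median of 0 in the 12.

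Without these 12 cells, the ratios between both main sets moved for the genes they hold. Epha7 was 1.40-fold lower in the cells with Rgs5 above Pdgfra, against 2.87-fold with them. Ephb2 was 2.61-fold lower, Unc5c 2.45-fold, Sema5a 2.54-fold and Sema3a 2.27-fold, while Plxna2 was 4.14-fold lower and Robo2 2.64-fold. Ephb2 also reversed in the low-Sftpc columns alone, to 2.49 on the log2 scale, where it was at 5.28 CPM over both sets.

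Ligands were next set beside their receptors in the same cell, over 65 pairs taken from textbook knowledge of the families. At the thinned depth, 13 pairs had a count of both genes in at least 50% of cells, 1 in at least 90%, and 14 in under 5%. In the cells with Rgs5 above Pdgfra 11 pairs reached 50%, and in the others 14. For 46 of the 65 pairs the share was lower in the cells with Rgs5 above Pdgfra. Many pairs have a gene in common, so these counts are not separate from the differences of single genes. Shares of other gene pairs were not taken for comparison. The most widespread pair was Sema6d with Plxna1, in 96.6% of cells (94.4 to 98.1, Clopper-Pearson).

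Slit2 was counted with Robo2 in 84.8% of cells, 80.1% of those with Rgs5 above Pdgfra and 88.1% of the others, and with Robo1 in 84.1%. Slit3 was counted with Robo2 in 58.2%. Sema4c and Plxnb2 were counted together in 81.9% of cells. The share for Sema5a with Plxna1 was 49.7% in the cells with Rgs5 above Pdgfra and 83.5% in the others. Plxna1 was counted in every cell at this depth, so this share is that of Sema5a. Among ephrins B, Efnb1 with Ephb3 reached 73.2% and with Ephb4 64.5%, and Efnb2 with Ephb3 46.1%. Ephrin A pairs were rarer, led by Efna2 with Epha3 in 16.9%, then Efna4 with Epha2 in 11.1% and Efna1 with Epha2 in 9.90%. Netrin pairs were led by Ntn4 with Unc5b in 39.4%, Ntn4 with Neo1 in 38.6% and Ntn1 with Unc5b in 35.3%.

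A gene counted in every cell, such as Robo2 or Plxna1, makes the share of its pairs that of the ligand alone. For pairs without such a gene, the product of the 2 single shares was 73.1% for Efnb1 with Ephb3, 43.7% for Efnb2 with Ephb3 and 11.8% for Efna1 with Epha2. Spearman correlations of CPM across the 460 cells, which share library totals, ran from -0.34 for Slit3 with Robo4 to 0.19, with a median near 0 over the 65 pairs. Such weak values in sparse counts are no finding. Among the pairs, Slit2 with Robo2 and Sema3a with Plxna2 were both at least 2-fold lower in the cells with Rgs5 above Pdgfra, Sema4d with Plxnb1 both higher, and Sema7a with Plxnc1 in opposite directions. Of all pairs among the 24 guidance genes counted in at least 50% of cells, 4 had a correlation over 0.3, led by Robo2 with Sema3c at 0.41, which was 0.10 within the cells with Rgs5 above Pdgfra and 0.34 within the others.

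**Figure D5:**
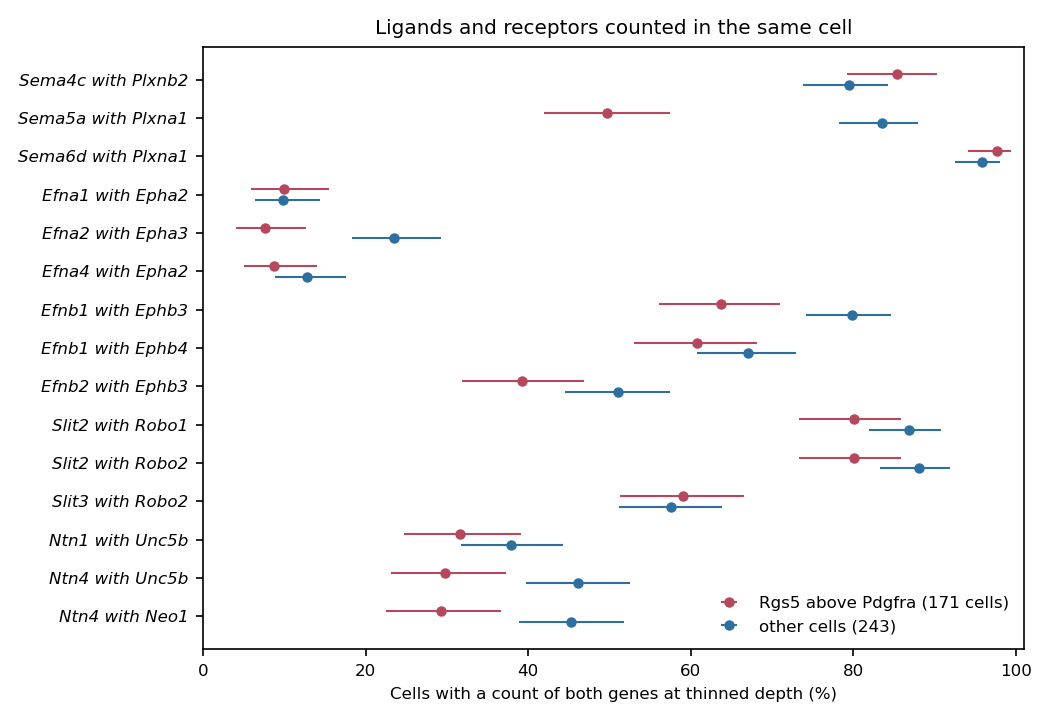
Percent of cells with a count of both genes at the thinned depth (horizontal) for the 3 leading pairs of each family, in the cells with Rgs5 above Pdgfra and the others that reached that depth. Bars are exact 95% intervals for counting error. The sets lie farthest apart for Sema5a with Plxna1, at 49.7% and 83.5%.

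Another 54 genes of these pathways, co-receptors and intracellular partners, were counted alongside, and 41 reached 5 CPM. Of these, 2 were at least 2-fold higher in the cells with Rgs5 above Pdgfra, 5 were lower and 34 lay within 2-fold, with a median log2 ratio of 0.08. These are 4.88% and 12.2% of the 41, beside 5.98% and 5.94% of all genes. Neo1, the netrin receptor neogenin, was at 148.8 against 298.2 CPM, 2.003-fold lower. Nrcam, a cell adhesion molecule that joins neuropilin complexes, was at 18.5 against 216.1 CPM, 11.7-fold lower. Srgap3, a GTPase-activating partner of Robo receptors, was at 32.1 against 84.4 CPM, and Flrt2, a membrane ligand of Unc5 receptors, at 27.7 against 79.95 CPM. Met, the hepatocyte growth factor receptor that can join plexins B, was at 16.2 against 2.96 CPM, and L1cam at 6.19 against 1.33 CPM. Ngef, an exchange factor downstream of Eph receptors, was at 3.24 against 6.94 CPM. Dcc had no count in any cell, and Dpysl2, a collapsin response mediator, was counted in every cell at 623 CPM.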

How the data were processed

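Single-cell RNA sequencing of 460 cells was deposited as 1 table of molecular barcode counts, which per the file header the authors give as whole-number counts per gene and cell. STAR, HTSeq and the build mm10 are named in the submitters' processing notes, without versions; how barcodes were collapsed, and which strand was counted, are not given in the sources used here. For each of the 113 gene symbols that occur more than once, the entry with the most counts was used where a gene is named. The strain's genotype is not reported here. No label names an animal, so differences carry no test and a count is called at 2-fold, with at least 5 CPM in the higher set. The sets held 203 cells with Rgs5 above Pdgfra and 257 others, and 12 cells with Hand2 and Hoxa10 against 448. Totals ran from 25029 to 240496 counts per cell. Doublets were kept, with no caller run. Shares of cells said to be at the thinned depth, and those of the pairs, used counts thinned to the 10th percentile, 56586 counts. This left out 32 cells with Rgs5 above Pdgfra and 14 others and kept 171 and 243. The remaining shares of cells used the full counts of all 460 cells, whose depth differs. Intervals are exact Poisson, Clopper-Pearson or conditional binomial. Exon lengths and positions come from GENCODE vM21. The 127 low-Sftpc columns are those for which over 50% of the closest 20 columns held less than 30 CPM of it.

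Values are given in full for the 25 genes of highest level and for those past 2-fold, and for the 3 leading pairs of each family. The genes, lists, pairs and sets were chosen with earlier results of these data known. The calculation was tested on simulated data. Tables were handled with pandas 2.3.3, intervals came from scipy 1.17.1 with numpy 2.4.6, and plots from matplotlib 3.10.9, under Python 3.11.15.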

Additional observations from a re-analysis of the deposited data

How the results depend on the processing

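The counts of guidance genes past 2-fold, 6 higher and 12 lower, became 5 and 21 when only cells with more than 2 times as much of Rgs5 or of Pdgfra were compared, 11 and 14 with no minimum level, and 10 and 21 at 1.5-fold. With no minimum level these were 16.9% and 21.5% of the guidance genes, near the 16.7% and 18.98% of all genes. With the stricter choice of cells they were 9.43% and 39.6% beside 6.59% and 8.13%, and at 1.5-fold 18.9% and 39.6% beside 10.9% and 11.5%. Under the remaining settings they ran from 4 to 8 and from 10 to 16. All 12 lower genes remained lower with thinned counts, with the mean of single cells, without the low-Sftpc columns and with the stricter choice of cells, and 8 remained in the low-Sftpc columns alone. Robo2, Sema5a, Sema3c, Plxna2, Unc5c, Plxnb1 and Sema5b stayed past 2-fold in every alternative. Sema7a did so except in the low-Sftpc columns alone, where it was at 0 CPM against 1.66 CPM in the others. The log2 ratio of Sema3d reversed to -0.89 with the stricter choice of cells, and that of Ephb2 to 2.49 in the low-Sftpc columns alone; the cause was not tested. Leaving out the highest cell of each set was chosen after the data were seen. No paired analysis was possible because there is 1 group and no test. Genes under 5 CPM are limited by depth, and with 1 sample the spread between animals is unknown.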
